A study of Mus musculus with 281 samples.

Results

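The 84 genes that encode subunits of the respiratory chain in the nucleus were followed across single cells of the mouse stria vascularis, the ion-transporting tissue of the cochlear lateral wall. They were all gene names in the table that begin with Nduf followed by a, b, c, s or v and a digit, with Uqcr, with Cox4 to Cox8 or with Atp5, plus Sdha, Sdhb, Sdhc and Sdhd, and 4 matching pseudogene names with -ps were left out. This gave 84 of 47752 genes, of which 37 carry complex I names, 4 complex II names, 8 complex III names, 18 complex IV names and 17 complex V names. The names were used as the files give them. Ndufa4 is counted with complex I by its name although its protein is now placed in complex IV, and Atp5s and Atp5sl are not subunits of the synthase itself.

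The cells of the series came from Slc26a4+/+, Slc26a4+/- (40 cells) and Slc26a4-/- (69 cells) mice on the 129S6 background, all male, with ages of 22 to 44 days in the cells' names. Slc26a4 encodes pendrin, an anion exchanger of the inner ear epithelium. The labels name no other allele and no treatment, and do not say whether mice of different genotypes were littermates. Cells were freed with collagenase, picked by hand with a glass micropipette and turned into full-length cDNA from poly-A RNA by Smart-Seq2, and no cell is tied to a mouse by its label. Each genotype was therefore counted as 1 sample, no p-value was computed, and every SD and range below is a spread over cells.

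The respiratory chain is the set of enzyme complexes in the inner mitochondrial membrane that passes electrons from NADH and succinate to oxygen and uses the resulting proton gradient to make ATP. Complex I (NADH dehydrogenase), complex III (cytochrome c reductase), complex IV (cytochrome c oxidase) and complex V (ATP synthase) each join subunits encoded in the nucleus with subunits encoded in mitochondrial DNA, while complex II (succinate dehydrogenase) is encoded in the nucleus alone. In the stria vascularis, marginal cells secrete potassium into the endolymph and are rich in mitochondria, and intermediate cells are melanocyte-derived cells whose Kcnj10 channel generates the endocochlear potential. Spindle cells and root cells are pendrin-expressing epithelial cells at the edge of the stria and in the outer sulcus.

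Depth ranged from 1848 to 7932729 counts per cell with a median of 1312950, and 20 cells had under 100000. Cells were sequenced on 4 run dates with median counts of 291155, 682407, 1388120 and 2346920 per cell, numbered 1 to 4 here, and were collected in 36 sessions of which 35 hold 1 genotype, so that genotype and session cannot be told apart. Clustering without the members gave intermediate cell-like (IMC-like), spindle cell-like (SC-like), root cell-like (RC-like) and marginal cell-like (MC-like) cells, with 38, 23, 17 and 14 Slc26a4+/+ cells, and 2 clusters left unnamed. In the larger unnamed cluster 44 of 69 Slc26a4+/+ cells scored highest on the IMC markers, which is under the 80% needed for a name, so these cells were not counted as IMC-like. The summed level of the IMC markers averaged 52236 CPM (counts scaled to the same total in every cell) in IMC-like cells against 463 in MC-like, 1258 in SC-like cells and 1768 in RC-like cells, and that of the MC markers 54264 in MC-like cells against 376 in IMC-like cells, 5034 in SC-like cells and 2410 in RC-like cells. The marker lists were partly drawn up on these same cells, so the names are not independent of them. None of the fixed markers was among the 10 leading genes by fold of the IMC-like or the MC-like cells. A name was given where at least 80% of a cluster's cells scored highest on 1 marker list. At least 3 of its markers also had to be counted in most cells. Over all genotypes 84 of 84 IMC-like, 31 of 33 SC-like, 31 of 37 RC-like and 21 of 21 MC-like cells scored highest on their own list. The RC-like cells had 1 RC marker (Epyc) and 1 fibrocyte marker (Lum) among their leading genes. The SC-like cells had 2 SC markers and the pericyte gene Rgs5 among theirs, and their summed pericyte markers averaged 3920 CPM against 135.6 in RC-like cells, 6.22 in IMC-like cells and 4.65 in MC-like cells. Only 1 of the 5 pericyte markers was counted in most SC-like cells, and the study lists Rgs5 among genes expressed in spindle cells. Basal cell markers averaged 3646 CPM in SC-like cells, where 3 of 4 were counted in most cells, against 99.9 in IMC-like cells, 752 in RC-like cells and 930 in MC-like cells. Fibrocyte markers averaged 1014 CPM in SC-like cells and 1423 in RC-like cells, with medians of 47.2 and 1267, against 95.96 in IMC-like cells and 268.1 in MC-like cells. Schwann cell markers averaged 1834 CPM in IMC-like cells and 352 to 485 in the other types. The endothelial, macrophage, neutrophil, erythroid, B cell and hair cell markers averaged at most 277.1 CPM in any of the 4 types. The part of these markers in the results below was not tested. Slc26a4 RNA was counted in Slc26a4-/- cells, with a mean of 1188 CPM in RC-like cells against 989 in Slc26a4+/+ and 102.5 CPM in SC-like cells against 912. Gene-level counts do not say which part of the gene was read, so this gives no check of the genotype.

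Promoters of the members were read to show the sequence around members that differed between cell types, and each window spans 250 bases before to 50 bases after a gene's RefSeq start in GRCm38.p6. RefSeq gave windows for 69 of the 84 members, 75 windows in all, and none for 15. The letters GCATGCGC, searched on both strands as in the site of the factor NRF1, occurred in 13.3% of member windows against 2.71% of all 32851 windows, AAGATGGC (as for YY1) in 16% against 2.75%, CCGGAAG (as for ETS factors such as GABPA) in 21.3% against 8.86%, and AAGGTCA (as for the estrogen-related receptors) in 10.7% against 4.72%. The remaining motifs were TATAAA with 10.7% of member windows against 13.6%, CAGCTG with 8% against 16.3% and CCGCCC with 38.7% against 35.7%. These matches are letters in a window and say nothing of a factor's presence there. The stretches upstream of the start are shown 5′ to 3′ on the gene's strand in lower case, with capitals for a matched motif, and were taken for members described below by their cell type or genotype pattern. Capitals mark overlapping copies of GCATGCGC and its reverse in Cox6a1 (chr5:115348982-115349208, minus strand), where CCGCCC is also in capitals at both of its places nearer the start, and in Ndufa11 (chr17:56717512-56717761, plus strand), TGACCTT, the reverse of AAGGTCA, in Atp5g3 (chr2:73911327-73911576, minus strand), AAGGTCA in Ndufb2 (chr6:39592315-39592564, plus strand) and CAGCTG in Cox8b (chr7:140900447-140900696, minus strand). Cox7a1 (chr7:30183921-30184143, plus strand) holds none of the 7 motifs in the stretch shown.
Cox6a1: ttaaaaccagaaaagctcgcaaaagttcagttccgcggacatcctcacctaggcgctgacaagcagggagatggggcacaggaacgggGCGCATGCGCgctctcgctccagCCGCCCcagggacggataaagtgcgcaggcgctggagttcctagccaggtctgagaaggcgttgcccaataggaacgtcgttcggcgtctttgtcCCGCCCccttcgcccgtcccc
Ndufa11: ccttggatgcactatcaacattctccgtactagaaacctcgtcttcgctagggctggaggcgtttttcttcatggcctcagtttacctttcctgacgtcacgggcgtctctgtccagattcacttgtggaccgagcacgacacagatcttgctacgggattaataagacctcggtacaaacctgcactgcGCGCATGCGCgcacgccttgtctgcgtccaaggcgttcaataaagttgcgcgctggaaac
Atp5g3: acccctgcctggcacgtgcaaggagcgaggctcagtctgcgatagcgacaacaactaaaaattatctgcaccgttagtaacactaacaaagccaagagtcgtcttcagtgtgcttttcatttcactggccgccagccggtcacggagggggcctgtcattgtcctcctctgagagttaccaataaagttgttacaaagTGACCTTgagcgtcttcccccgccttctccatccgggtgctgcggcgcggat
Ndufb2: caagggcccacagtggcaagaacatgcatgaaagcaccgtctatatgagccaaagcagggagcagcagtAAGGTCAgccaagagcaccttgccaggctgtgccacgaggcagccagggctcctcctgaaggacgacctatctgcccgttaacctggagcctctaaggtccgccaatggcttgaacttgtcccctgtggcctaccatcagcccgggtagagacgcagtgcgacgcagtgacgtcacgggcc
Cox8b: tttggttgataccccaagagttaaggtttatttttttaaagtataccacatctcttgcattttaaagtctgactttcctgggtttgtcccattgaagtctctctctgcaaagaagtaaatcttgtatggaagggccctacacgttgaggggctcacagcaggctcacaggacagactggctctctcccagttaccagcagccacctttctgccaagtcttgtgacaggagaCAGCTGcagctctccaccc
Cox7a1: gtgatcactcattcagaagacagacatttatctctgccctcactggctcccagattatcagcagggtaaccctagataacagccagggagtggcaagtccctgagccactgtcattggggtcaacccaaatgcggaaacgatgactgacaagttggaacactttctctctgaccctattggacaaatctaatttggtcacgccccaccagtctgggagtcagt

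By means over cells, respiratory chain RNA was highest in MC-like and IMC-like cells, lower in RC-like cells and lowest in SC-like cells. In Slc26a4+/+ cells the 84 members together averaged 21337 CPM (SD 11880, n = 14 cells) in MC-like cells, from 8192 through a median of 19558 to 57659. IMC-like cells averaged 18391 CPM (SD 5012, n = 38 cells), from 9001 through 17728 to 31399. RC-like cells averaged 11123 CPM (SD 5040, n = 17 cells), from 3166 through 10974 to 19434, and SC-like cells averaged 8181 CPM (SD 2598, n = 23 cells), from 4155 through 7405 to 12873. The members thus took 2.13%, 1.84%, 1.11% and 0.818% of all counts in these types. The single cells of all 4 types overlapped in range, and IMC-like and MC-like cells did not differ beyond their spread. CPM is a share of a cell's counts, so a larger share of members and a smaller share of other RNA cannot be told apart.

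**Figure D1:**
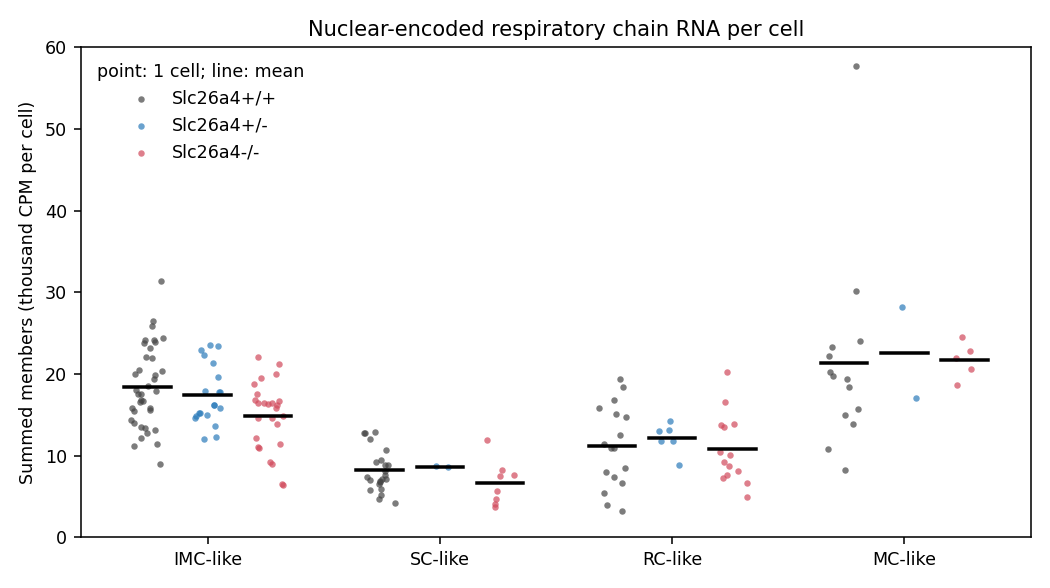
Summed CPM of the 84 members in each cell, by cell type and genotype. Each point is 1 cell and the line is the mean over cells; most IMC-like and MC-like cells lie above the SC-like cells, and 1 Slc26a4+/+ MC-like cell stands at 57659 CPM.

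The order was next read within collection sessions, defined by the run date, day and age in the cells' names. IMC-like cells had the higher mean in 10 of 10 sessions with SC-like cells (log2 ratio 0.56 to 1.68), in 7 of 8 with RC-like cells (-0.17 to 2.51) and in 3 of 5 with MC-like cells (-1.07 to 0.44). MC-like cells had the higher mean in 5 of 5 sessions with SC-like cells and 4 of 4 with RC-like cells, and RC-like cells in 4 of 5 with SC-like cells. The log2 ratio of SC-like to RC-like cells ran from -1.02 to 0.83. In run date 3 the median session mean was 8704 CPM for 15 SC-like cells and 7456 CPM for 4 RC-like cells. In the other run dates it was higher for RC-like cells. The mean of IMC-like cells was 2.25 times that of SC-like cells and 1.65 times that of RC-like cells. On TPM, which divide by transcript length before scaling, IMC-like cells stood at 49157 and MC-like cells at 46386, so the order of these neighbours turned with the unit.

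A single MC-like cell carried much of the MC-like spread. It held 57659 CPM of members with 720865 counts and 3066 genes, including 10917 CPM of Cox4i1, 6528 CPM of Atp5a1 and 3256 CPM of Ndufv1, but 5.55 CPM of the complex II genes together. Without it MC-like cells averaged 18544 CPM (SD 5874, n = 13 cells), which was 1.01 times the IMC-like mean, 2.27 times the SC-like mean and 1.67 times the RC-like mean. The difference from SC-like and RC-like cells was thus seen without this cell, while the mean above IMC-like cells was not.

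IMC-like and MC-like cells also had more of the members detected once depth was made equal. After thinning each cell to 100000 counts, a median of 71 of 84 members had a count in IMC-like cells, 70.5 in MC-like cells, 55 in SC-like cells and 53 in RC-like cells, and 2 SC-like cells and 1 RC-like cells were too shallow to be used. Before thinning the medians were 73.5, 73, 63 and 65. Of the 84 members, 79 reached a mean of 10 CPM in a cell type and entered the counts per gene, and 68 reached 100 CPM. The 5 that did not were Ndufa4l2, Cox8c, Cox4i2, Cox6a2 and Cox7b2, which are the tissue-restricted copies of widely used subunits, and Cox8c had no count in any cell.

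Members were lowest in SC-like cells far more often than genes at large. The SC-like mean was the lowest of the 4 in 63 of 79 members against 19.4% of 11384 genes, and it was at least 2-fold below the next type in 14 members against 5.23%. IMC-like cells exceeded SC-like cells at least 2-fold in 46 of 79 members against 22.4% of genes, and fell below to the same extent in 1 member against 25.7%. MC-like cells exceeded SC-like cells at least 2-fold in 55 members against 18.6%. RC-like cells did so in 19 of 79 members against 25.8%, a share near that of all genes. In 26 members the IMC-like mean was above the SC-like mean in at least 9 of the 10 shared sessions, against 5.07% of genes. Between IMC-like and MC-like cells members were split, with 28 highest in IMC-like cells against 24.4% of genes and 47 highest in MC-like cells against 19.8%. Without the MC-like cell named above this split turned, with 40 highest in IMC-like cells (24.4% of genes) and 34 in MC-like cells (19.9%), while 64 were lowest in SC-like cells.

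**Figure D2:**
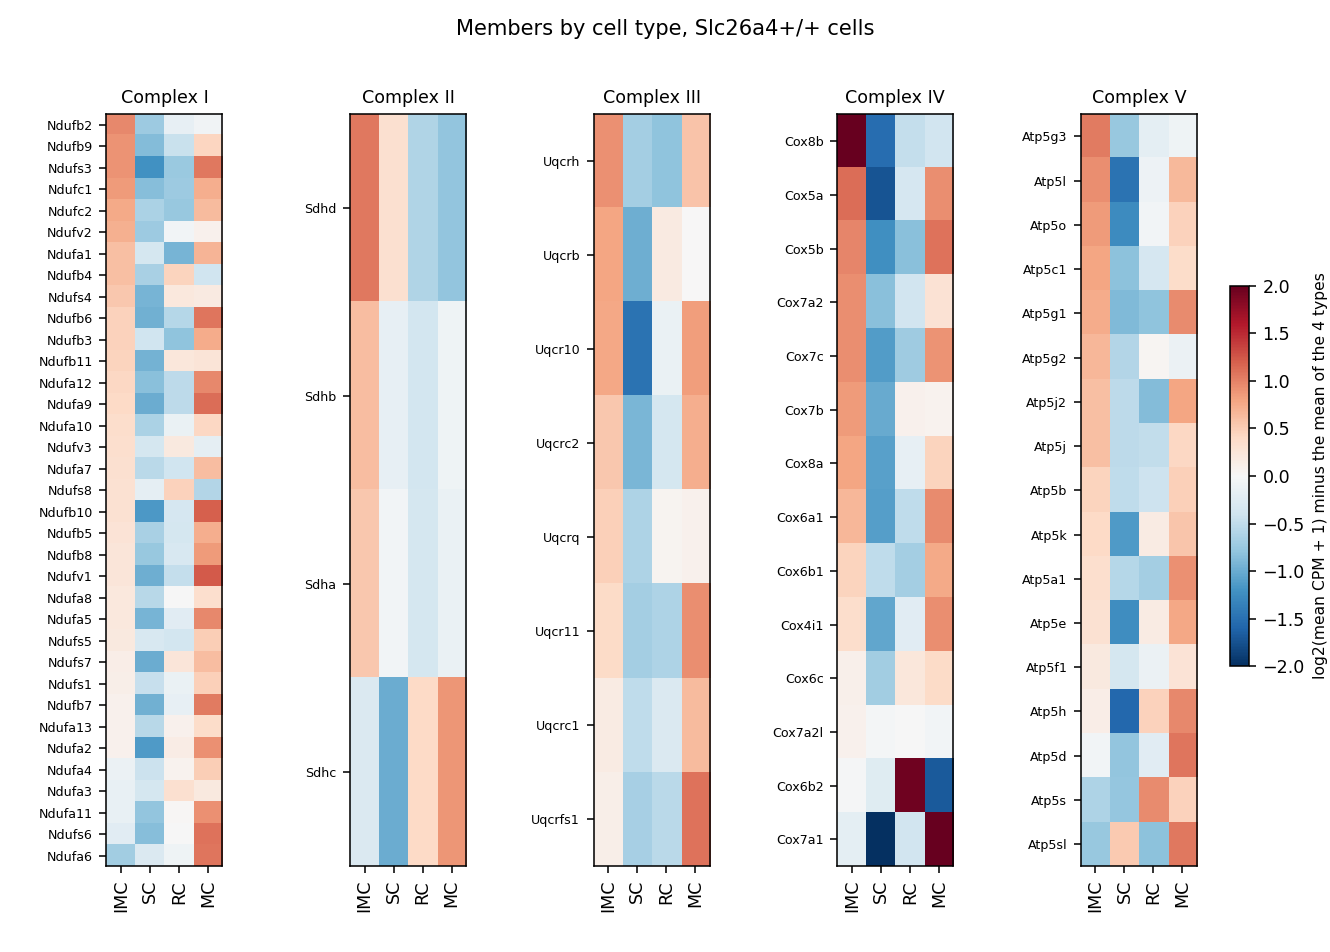
Heat map of members that reached a mean of 10 CPM, by complex (rows) and Slc26a4+/+ cell type (columns), with color for log2(mean CPM + 1) minus the mean of that value over the 4 types. The SC column is blue for most members of complexes I, III, IV and V, and Cox8b is darkest red in IMC and Cox7a1 in MC.

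Few members marked 1 cell type by a large margin. At least 2-fold above the next type stood 3 members in IMC-like cells (Cox8b, Atp5g3 and Ndufb2; 8.02% of all genes), 4 in MC-like cells (Cox7a1, Ndufa6, Atp5d and Ndufs6; 6.16%), 1 in RC-like cells (Cox6b2; 11.6%) and 0 in SC-like cells (8.48%). Without the MC-like cell named above only 2 stood so in MC-like cells (Cox7a1 and Uqcrfs1; 5.84%), Ndufa6, Atp5d and Ndufs6 no longer did, and 2 were left in IMC-like cells, without Ndufb2. Cox6b2, a copy of Cox6b1 known from testis, rests on 1 RC-like cell with 197.6 CPM, and it is also the 1 member at least 2-fold lowest in MC-like cells (15.4% of genes). Atp5d and Ndufs6 are described below for this count and were picked after their values were seen. The 14 members at least 2-fold lowest in SC-like cells were Atp5e, Atp5h, Atp5k, Atp5l, Atp5o, Cox5a, Cox7a1, Cox7b, Cox8b, Ndufa2, Ndufb11, Ndufs4, Ndufs7 and Uqcr10.

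Complex I transfers electrons from NADH and is the largest of the complexes. Its 37 members summed to 5625 CPM (SD 1643) in IMC-like cells, 2729 CPM (SD 914) in SC-like cells, 4034 CPM (SD 1982) in RC-like cells and 7220 CPM (SD 4097) in MC-like cells. SC-like cells were lowest in 30 of its 36 members with a mean of 10 CPM, MC-like cells were highest in 25 (19 without the MC-like cell named above), and 19 stood at least 2-fold higher in IMC-like than in SC-like cells. By TPM the most abundant was Ndufb9, an accessory subunit, with a mean of 1313 TPM in IMC-like cells and 373 TPM in SC-like cells. Of the core subunits, Ndufv1, which binds NADH, averaged 224.006 CPM in IMC-like cells, from 0 through 212.3 to 892, 95.8 CPM in SC-like cells, from 0 through 6.87 to 555, 136.4 CPM in RC-like cells and 445 CPM in MC-like cells. Ndufs1, the iron-sulfur subunit, averaged 179.4 CPM in IMC-like cells, 120 CPM in SC-like cells, 150.7 CPM in RC-like cells and 231.7 CPM in MC-like cells. In IMC-like cells both core genes had a count in 35 and 34 of 38 cells, against 38 for Ndufb9, and their ranges overlapped between cell types.

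Within complex I, Ndufb2 was the 1 member at least 2-fold highest in IMC-like cells. This accessory subunit (chr6:39592574-39603382, GRCm38) averaged 335 CPM in IMC-like cells, from 9.03 through a median of 215.8 to 2351, against 104.045 CPM in SC-like cells, 153.3 CPM in RC-like cells and 164.2 CPM in MC-like cells. The IMC-like mean was 2.04 times the next, but the highest RC-like cell held 1273 CPM, and without the IMC-like cell of 2351 CPM the mean was 280.65 CPM and 1.71 times the next. Ndufa6 and Ndufs6 ran the other way and were highest in MC-like cells, with means of 223.009 and 352 CPM against 98.8 and 163.3 CPM in the next type, RC-like cells. In the MC-like cell named above they stood at 1293 and 1580 CPM, and without it their MC-like means were 140.7 and 257.8 CPM.

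Complex II, which oxidises succinate and belongs to the citric acid cycle as well, did not share the pattern when means over cells were compared. Its 4 genes summed to 1414 CPM (SD 676) in IMC-like cells, 888 CPM (SD 609) in SC-like cells, 790 CPM (SD 542) in RC-like cells and 948 CPM (SD 552) in MC-like cells. The medians were 1365, 694, 731 and 1128 CPM in the same order, so by medians SC-like cells were lowest here too. Without the MC-like cell named above, which held 5.55 CPM, the MC-like mean was 1020 CPM. None was at least 2-fold higher in IMC-like than in SC-like cells, and only Sdhc was lowest in SC-like cells. Sdha, the flavoprotein, averaged 723 CPM in IMC-like cells, from 0 through 639 to 1859, against 479 CPM in SC-like cells, 389 CPM in RC-like cells and 455 CPM in MC-like cells. Sdhb, the iron-sulfur subunit, averaged 468, 273.3, 236.4 and 289.014 CPM in the same order and was the most abundant by TPM, at 717 TPM in IMC-like cells. Sdhd, a membrane anchor, averaged 152.1 CPM in IMC-like cells and 41.9 in MC-like cells, whereas its partner Sdhc averaged 71.1 CPM in IMC-like cells and 162.4 in MC-like cells. The median log2 ratio of MC-like to SC-like cells over the 4 genes was 0.00, against 1.24 to 1.44 for the members of the other complexes.

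Complex III passes electrons from ubiquinol to cytochrome c. Its 8 members summed to 1371 CPM (SD 492) in IMC-like cells, 595 CPM (SD 336) in SC-like cells, 777 CPM (SD 698) in RC-like cells and 1696 CPM (SD 922) in MC-like cells. SC-like cells were lowest in 7 of the 8, and 6 were at least 2-fold higher in IMC-like than in SC-like cells. Uqcr11 was the most abundant by TPM, at 1904 TPM in IMC-like cells, 874 TPM in SC-like cells, 760 TPM in RC-like cells and 1964 TPM in MC-like cells. Uqcr10 averaged 135.7 CPM in IMC-like cells, from 0 through 129 to 315, against 27.5 CPM in SC-like cells, from 0 through 27.5 to 96.1, and was higher in IMC-like cells in 10 of 10 sessions. Uqcrfs1, the Rieske iron-sulfur protein, averaged 226.9 CPM in IMC-like cells and 447 in MC-like cells, and Uqcrc1, a core protein, averaged 143.2 and 198.4 CPM.

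Complex IV, which hands electrons to oxygen, separated IMC-like from SC-like cells most among the complexes. Its 18 members summed to 4166 CPM (SD 1630) in IMC-like cells, from 1297 through 4009 to 8316, and to 1310 CPM (SD 584) in SC-like cells, from 570 through 1082 to 2776. RC-like cells stood at 2164 CPM (SD 1309) and MC-like cells at 4701 CPM (SD 4532), or 3543 CPM (SD 1387) without the MC-like cell named above. The IMC-like mean was 3.18 times the SC-like mean, and the median log2 ratio over its 14 members with a mean of 10 CPM was 1.82, against 0.72 to 1.28 for the other complexes. Cox4i1 was the most abundant member by TPM, at 3417 TPM in IMC-like cells, 1325 TPM in SC-like cells, 1890 TPM in RC-like cells and 3814 TPM in MC-like cells. Cox5a, a core structural subunit on chromosome 9 (57521274 to 57532426, GRCm38), averaged 380 CPM in IMC-like cells, from 1.16 through 360 to 968. In SC-like cells Cox5a averaged 52.2 CPM, from 0 through 37.4 to 210, in RC-like cells 137.97 CPM and in MC-like cells 334 CPM. Cox6a1 averaged 184.9 CPM in IMC-like cells against 53.7 CPM in SC-like cells and was higher in 10 of 10 sessions.

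Complex V makes ATP from the proton gradient. Its 17 members summed to 5815 CPM (SD 1960) in IMC-like cells, 2660 CPM (SD 1023) in SC-like cells, 3359 CPM (SD 1778) in RC-like cells and 6772 CPM (SD 3038) in MC-like cells. SC-like cells were lowest in 14 of the 17, and 11 were at least 2-fold higher in IMC-like than in SC-like cells. Atp5b, the catalytic beta subunit and the most abundant by TPM, averaged 1163 CPM in IMC-like cells, 598 CPM in SC-like cells, 639 CPM in RC-like cells and 1192 CPM in MC-like cells, and was higher in IMC-like than in SC-like cells in 10 of 10 sessions. Atp5a1, the alpha subunit, averaged 1440, 768, 714 and 2154 CPM in the same order. Atp5l, which lies in the membrane part of the synthase, averaged 180 CPM in IMC-like cells, from 0 through 181.5 to 490, against 33.2 CPM in SC-like cells, from 0 through 34.7 to 110. Atp5d, the delta subunit of the rotor stalk, was highest in MC-like cells, at 788 CPM against 362 CPM in IMC-like cells, and at 602 CPM without the MC-like cell named above.

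Across all complexes the members with the largest log2 ratios of IMC-like to SC-like means were Cox8b (3.90), Cox5a (2.84), Atp5l (2.40), Cox7a1 (2.27) and Uqcr10 (2.26). At the other end were Atp5sl (-1.27), Ndufa6 (-0.41), Cox7a2l (0.13), Atp5s (0.15) and Ndufa3 (0.21), with Cox6b2 also at 0.21. Atp5sl was the 1 member at least 2-fold lower in IMC-like cells, and it was sparse, with a count in 9 of 38 IMC-like cells and 10 of 23 SC-like cells. Cox7a2l, an assembly factor of respiratory supercomplexes named after the Cox7a subunits, had means between 52.2 and 57.6 CPM in all 4 cell types. It was sparse too, with medians of 13.1, 8.38, 0.56 and 1.57 CPM in IMC-like, SC-like, RC-like and MC-like cells. In the same order it had a count in 23 of 38, 15 of 23, 10 of 17 and 9 of 14 cells.

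Copies of the same subunit were used unequally. Cox8b, which replaces the ubiquitous Cox8a in heart and skeletal muscle and in brown fat, was counted in 38 of 38 IMC-like cells, with 57.8 CPM in the lowest cell, 186.6 at the median and 692 in the highest and a mean of 243.7 CPM. It averaged 15.4 CPM in SC-like cells, with a count in 13 of 23, 32.96 CPM in RC-like cells, with a count in 8 of 17, and 35.4 CPM in MC-like cells, with a count in 11 of 14. The ranges still met, since the highest SC-like, RC-like and MC-like cells held 213.3, 258.5 and 165.1 CPM. Per length Cox8b gave 41.03% of the Cox8 TPM in IMC-like cells (2240 TPM beside 3219 TPM of Cox8a), 14.5% in SC-like cells, 15.1% in RC-like cells and 11.4% in MC-like cells. The other genotypes had the same pattern, with 196.6 CPM and 37.2% of Cox8 TPM in 20 Slc26a4+/- IMC-like cells and 198.02 CPM and 50.3% in 26 Slc26a4-/- IMC-like cells, all of which had a count. The means of the SC-like, RC-like and MC-like cells of these genotypes lay between 2.43 and 39.5 CPM, and the highest single cell, an Slc26a4-/- RC-like cell, held 70.3 CPM. The 13 IMC markers had a median of 0.458% of their IMC-like level in MC-like cells and 8.35% at most. In SC-like cells the median was 1.74% and the highest 7.96%, and in RC-like cells 2.82% and 11.4%. Cox8b stood at 35.4, 15.4 and 32.96 CPM in MC-like, SC-like and RC-like cells, against 243.7 CPM in IMC-like cells. Whether its counts in these cells came from IMC RNA was not tested.

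**Figure D3:**
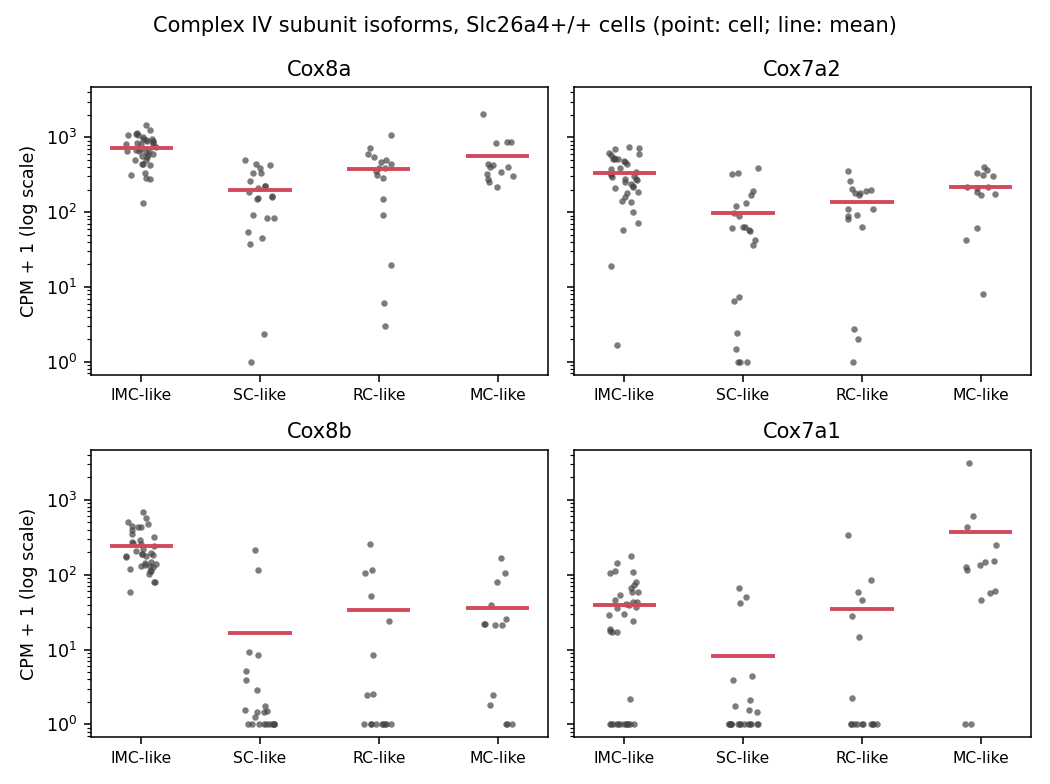
CPM + 1 on a log axis of Cox8a, Cox7a2, Cox8b and Cox7a1 in Slc26a4+/+ cells of the 4 types, with a point for each cell and a line at the mean. Cox8b has a count in 38 of 38 IMC-like cells, and Cox7a1 has its highest mean in MC-like cells, where 1 cell holds 3116 CPM.

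Cox7a1, the heart and muscle copy of Cox7a2, was highest in MC-like cells, with 0 CPM in the lowest cell, 130 at the median, 3116 in the highest and a mean of 374 CPM. The next mean was 38.2 CPM in IMC-like cells, from 0 through 28.7 to 176.9, while SC-like cells averaged 7.13 CPM and RC-like cells 33.4 CPM. The highest MC-like value came from the cell named above, and without it the MC-like mean was 163.2 CPM, 4.27 times the IMC-like mean. Cox7a1 took 76.1% of the Cox7a TPM in MC-like cells against 24.5% in IMC-like cells, 14.2% in SC-like cells and 35.1% in RC-like cells. MC-like cells of the other genotypes also carried it, with 187.1 CPM in 2 Slc26a4+/- cells and 95.7 CPM in 5 Slc26a4-/- cells, from 29.1 through 75.6 to 232.9.

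Among the copies of subunit c of the synthase, which make the same mature protein, Atp5g3 was highest in IMC-like cells, at 263.013 CPM, from 0.38 through 207.2 to 992, against 121.03 CPM in MC-like, 111.6 CPM in RC-like cells and 75.2 in SC-like cells. Atp5g3 took 52.1% of the Atp5g TPM in IMC-like cells, 51.6% in SC-like cells, 53.9% in RC-like cells and 33.6% in MC-like cells, and Atp5g1 took 59.8% in MC-like cells, where 1 cell held 1368 CPM. In Slc26a4-/- MC-like cells the share of Atp5g3 was 53.1% and that of Atp5g1 43.5%. Of the remaining pairs, Cox4i1, Cox6a1, Cox7b and Ndufa4 took all of the TPM of their pairs in the 4 Slc26a4+/+ cell types, except Cox7b with 99.8% in SC-like cells, and Cox6b1 took 99.1% in IMC-like cells.

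Sequence shared between genes could blur some members. Of the 84 members 20 shared no stretch of 31 bases with a transcript of another gene, 53 shared under 10% of theirs and 0 shared over 50%. Cox8b, Cox7a1 and Atp5g3 shared none. The largest share was 49.3% in Atp5o, including 14.3% with the antisense gene Gm15976, and the library kit does not mark strand. Atp5g2 followed with 40.2%, including 37.5% with Gm10175. The counts of both genes are less certain because of the shared sequence.

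The other genes of mitochondrial metabolism followed the members only in part. Over all 11384 genes with a mean of 10 CPM the median log2 ratio of IMC-like to SC-like cells was -0.05, and over the 79 members it was 1.13. The 12 mtDNA-encoded subunits measured had a median of 0.73, with 2 at least 2-fold higher and 0 lower, the 17 citric acid cycle genes 0.67 (5 higher, 0 lower), 45 assembly factors 0.50 (17 higher, 6 lower), 76 mitochondrial ribosomal proteins 0.37 (20 higher, 4 lower) and 16 import proteins and chaperones 0.17 (1 higher, 0 lower). The 8 mitochondrial antioxidant genes had a median of -0.0032 (1 higher, 1 lower), and 7 hypoxia targets 1.103 (4 higher, 2 lower). Cytosolic ribosomal proteins, which are also short and abundant transcripts, had a median of -0.34 over 91 genes with 5 higher and 19 lower. Over all genes 22.4% were at least 2-fold higher and 25.7% lower, so the 26.3% of mitochondrial ribosomal proteins that were higher lay near that share, and the 16.7% of mtDNA-encoded subunits below it. The summed level of the cytosolic ribosomal proteins was 4105 CPM in IMC-like cells against 6798 CPM in SC-like cells, the reverse of the members. The mtDNA-encoded subunits were highest in RC-like cells, at 5759 CPM (SD 4152) against 2148 CPM (SD 1708) in SC-like cells, 3455 CPM (SD 2652) in IMC-like cells and 3624 CPM (SD 3481) in MC-like cells, and all 12 were at least 2-fold higher in RC-like than in SC-like cells, against 25.8% of all genes.

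The 11 respiratory genes that the naming rule misses had a median log2 ratio of IMC-like to SC-like cells of 0.75. Of these, 5 were at least 2-fold higher in IMC-like cells (22.4% of all genes) and 0 lower (25.7%). Cyc1, the cytochrome c1 of complex III, averaged 500 CPM in IMC-like cells, 162.3 CPM in SC-like cells, 160 CPM in RC-like cells and 567.99 CPM in MC-like cells. Cytochrome c itself, Cycs, averaged 233.7, 88.5, 83.2 and 123.8 CPM in the same order and was higher in IMC-like than in SC-like cells in 10 of 10 sessions. Ndufab1, the acyl carrier of complex I, averaged 171.6 and 79.1 CPM and 2010107E04Rik, a small synthase-associated protein, 151.6 and 37.8 CPM in IMC-like and SC-like cells. Usmg5, Atpif1, Higd1a, Higd2a, Etfa, Etfb and Etfdh had log2 ratios of 0.40, 0.23, 1.103, 0.56, 0.66, 0.75 and 0.46.

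Regulators of mitochondrial gene expression were split between the cell types. Ppargc1a, the coactivator PGC-1alpha that drives mitochondrial gene expression, averaged 148.9 CPM in IMC-like cells, from 0 through 62.5 to 973, with a count in 36 of 38 cells. It averaged 3.05 CPM in SC-like cells, with a count in 7 of 23, 11.4 CPM in RC-like cells and 53.2 CPM in MC-like cells. Esrra, its nuclear receptor partner, averaged 70.6 CPM in IMC-like cells, 0.49 CPM in SC-like cells, 11.5 CPM in RC-like cells and 68.97 CPM in MC-like cells, and Esrrg 13.3, 0.14, 0.06 and 12.7 CPM. Esrrb, which was also used as a marginal cell marker, averaged 1619 CPM in MC-like cells, from 205.3 through 1695 to 3414, against 12.3 CPM in IMC-like cells, 84.3 CPM in SC-like cells and 52.3 in RC-like cells. Ppargc1a and Esrra were higher in IMC-like than in SC-like cells in 9 of 10 sessions each. Of the list, 6 of 14 regulators measured were at least 2-fold higher in IMC-like than in SC-like cells (22.4% of all genes). Lower to the same extent were 4 (25.7%), a share near that of all genes. Nrf1 stood at 25.4, 23.6, 31.03 and 40.1 CPM in IMC-like, SC-like, RC-like and MC-like cells, Tfam, which packages mitochondrial DNA, at 12.7, 34.4, 14.6 and 29.4 CPM and Gabpa at 20.1, 41.9, 2.86 and 11.8 CPM. Yy1 stood at 10.8, 14.1, 10.2 and 51.2 CPM, Nfe2l2 at 120, 82.3, 62.4 and 49.02 CPM and Polrmt at 28.3, 13.4, 13.6 and 41.2 CPM. Pprc1, Ppargc1b, Gabpb1, Tfb2m and Tfb1m had log2 ratios of IMC-like to SC-like cells of -0.84, 3.77, -1.12, 1.75 and 0.50.

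Within a cell type the summed complexes were correlated from cell to cell to differing degrees, as a description over cells that share the division by total counts. Summed complex I and complex IV had Pearson's r of 0.64 over 38 IMC-like cells, 0.64 over 23 SC-like cells, 0.78 over 17 RC-like cells and 0.96 over 14 MC-like cells. Complex I and complex V had lower r of 0.46, 0.42, 0.41 and 0.91 in the same order, and complex IV and complex V 0.48, 0.78, 0.39 and 0.84. The members and the cytosolic ribosomal proteins also had r of 0.52, 0.14, 0.68 and 0.89, so such correlation was not limited to the complexes. The members and the mtDNA-encoded subunits had r of 0.18 in IMC-like cells, 0.50 in SC-like cells, -0.23 in RC-like cells and 0.44 in MC-like cells. By ranks (Spearman's rho) the same pair had 0.26, 0.49, 0.0025 and 0.65, and complex IV and complex V had 0.56, 0.65, 0.62 and 0.96. The MC-like values include the cell named above, which held 19841, 19751 and 13926 CPM of complexes I, IV and V.

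The study compared the genotypes to see how loss of pendrin affects strial cells. Cells of the same run date were set against each other wherever a run date held at least 5 cells of each genotype. In IMC-like cells of run date 2 the members averaged 13537 CPM in 15 Slc26a4-/- cells, from 6417 through 14602 to 19950, and 12907 CPM in 5 Slc26a4+/+ cells, from 11165 through 12714 to 15815. In run date 4 they averaged 16537 CPM in 11 Slc26a4-/- cells, from 10932 through 16441 to 22058, and 22517 CPM in 7 Slc26a4+/+ cells, from 15522 through 23923 to 31399. The log2 ratio was thus 0.07 in run date 2 and -0.45 in run date 4, with a mean of -0.19, and the direction was not shared by the run dates. Session means of run date 4 spanned 15274 to 18521 CPM in 3 Slc26a4-/- sessions and 20370 to 24478 CPM in 3 Slc26a4+/+ sessions, and those of run date 2 spanned 10728 to 17897 CPM in 5 and 11436 to 13461 CPM in 3. The 20 Slc26a4+/- cells of run date 4 averaged 17384 CPM, from 12036 through 16167 to 23561, with a log2 ratio of -0.37 to Slc26a4+/+, and Slc26a4-/- cells had a log2 ratio of -0.07 to Slc26a4+/-. These comparisons share cells, and the 7 Slc26a4+/+ cells of run date 4 enter both ratios to Slc26a4+/+.

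**Figure D4:**
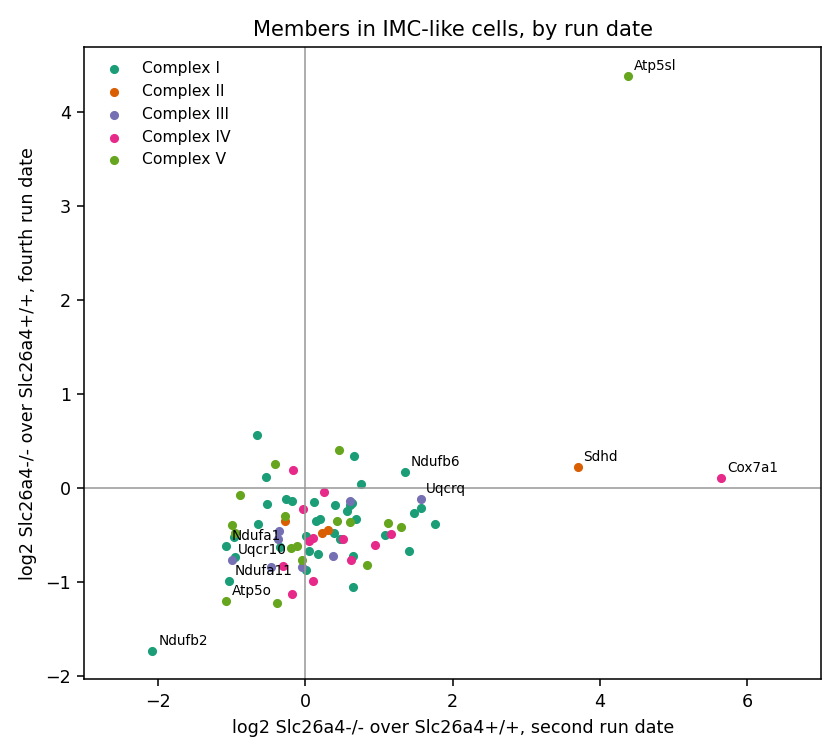
Log2 ratio of Slc26a4-/- to Slc26a4+/+ IMC-like means for each member, with run date 2 on the x axis, run date 4 on the y axis and color for the complex. Ndufb2 and Atp5o lie below 0 on both axes, while Cox7a1 and Sdhd are far from 0 in run date 2 alone.

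Fewer single members than genes at large passed 2-fold between genotypes in IMC-like cells. Of 78 members, 3 were at least 2-fold higher in Slc26a4-/- than in Slc26a4+/+ cells against 33.1% of all genes and 3 were at least 2-fold lower against 15.7%. Without the Slc26a4+/+ cell of run date 2 with the most Ndufb2 these counts were 5 and 1. In Slc26a4+/- against Slc26a4+/+ cells 1 of 79 was higher (24.4% of all genes) and 4 lower (19.2%), and in Slc26a4-/- against Slc26a4+/- cells 0 of 78 were higher (15.1%) and 3 lower (17.7%). At least 1.5-fold lower in Slc26a4-/- than in Slc26a4+/+ cells in both run dates were 6 of 78 members, Atp5o, Ndufa1, Ndufa11, Ndufb2, Ndufv2 and Uqcr10, against 11% of all genes, which is a share near the background. Without the same cell they were 5 of 78 against 10.4% of genes, with Atp5s in and Ndufb2 and Atp5o out.

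Ndufb2 had the lowest ratio of Slc26a4-/- to Slc26a4+/+ IMC-like cells, and in run date 2 this rested on 1 cell. In run date 2 it averaged 147.6 CPM in Slc26a4-/- cells, from 6.93 through 89.9 to 370, against 626 CPM in Slc26a4+/+ cells, which held 9.03, 14.4, 230, 527 and 2351 CPM. Without the last of these the Slc26a4+/+ mean was 195.15 CPM and the log2 ratio -0.40. In run date 4 it averaged 42.2 CPM, from 14.96 through 40.9 to 68.5, against 141.6 CPM, from 49.1 through 158.04 to 240. The log2 ratios over all cells were -2.08 and -1.72, and the ranges met in both run dates. The 20 Slc26a4+/- cells of run date 4 averaged 130 CPM, from 14.6 through 70.01 to 411, a mean near that of the 7 Slc26a4+/+ cells. In RC-like cells of run date 4 Ndufb2 averaged 51.7 CPM in Slc26a4-/- and 55.4 CPM in Slc26a4+/+ cells. Atp5o, at 1246 CPM in the same cell, had a log2 ratio in run date 2 of -1.08 with it and -0.42 without. The following members were Atp5o (log2 ratio over both run dates -1.14), Ndufa11 (-1.01), Uqcr10 (-0.87) and Ndufa1 (-0.85).

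At the other end stood Atp5sl (log2 ratio 4.38), Cox7a1 (2.88), Sdhd (1.96), Ndufb6 (0.76) and Uqcrq (0.73). Atp5sl was nearly absent from Slc26a4+/+ cells of these run dates, with means of 0.33 and 0.03 CPM, and averaged 26.7 and 20.5 CPM in Slc26a4-/- cells with a median of 0 in run date 2, so its fold depends on the pseudocount. Cox7a1 had no count in the 5 Slc26a4+/+ cells of run date 2, while in run date 4 its means were 48.8 and 45.2 CPM. Sdhd differed in run date 2 (37.1 against 1.94 CPM) and little in run date 4 (242.6 against 207.2 CPM).

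In Slc26a4+/- against Slc26a4+/+ IMC-like cells the lowest ratios were those of Cox6b2 (-2.02), Cox5a (-1.45), Uqcrb (-1.27), Cox7b (-1.03) and Cox7a2l (-0.95), and the highest those of Atp5sl (5.97), Cox6a1 (0.63), Atp5d (0.60), Ndufc2 (0.29) and Ndufb6 (0.12). Cox5a averaged 220 CPM in Slc26a4+/- cells, from 5.93 through 190 to 728, against 603 CPM in Slc26a4+/+ cells, from 267.2 through 534 to 968, with ranges that overlapped, and 275.8 CPM in Slc26a4-/- cells of the same run date. In Slc26a4-/- against Slc26a4+/- cells the lowest were Ndufb2 (-1.61), Atp5sl (-1.59), Atp5s (-1.17), Ndufb5 (-0.92) and Uqcr11 (-0.66), and the highest Cox7a1 (0.94), Ndufs4 (0.89), Sdhd (0.68), Ndufa8 (0.62) and Atp5f1 (0.52).

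The mtDNA-encoded subunits had other ratios between genotypes than the nuclear members. In IMC-like cells of run date 4 they summed to 1303 CPM in Slc26a4-/- cells, from 635 through 1181 to 2458, to 2675 CPM in Slc26a4+/- cells, from 536 through 2583 to 4548, and to 2774 CPM in Slc26a4+/+ cells, from 849 through 2846 to 5611. Against Slc26a4+/- the log2 ratio of Slc26a4-/- was -1.04, while the nuclear members had a log2 ratio of -0.07. All 12 mtDNA-encoded genes measured were lower, as were 4946 of 9207 genes, and 7 were at least 2-fold lower, against 17.7% of all genes. Against Slc26a4+/+ cells of run date 4 the nuclear members were lower as well. There the median log2 ratio over genes was -1.22 for the mtDNA-encoded subunits and -0.45 for the members. In run date 2 the mtDNA-encoded sum was 1264 CPM in Slc26a4-/- and 1631 CPM in Slc26a4+/+ cells, a log2 ratio of -0.37. Ranges of single cells overlapped in each comparison. Genotype and session cannot be told apart in these ratios.

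**Figure D5:**
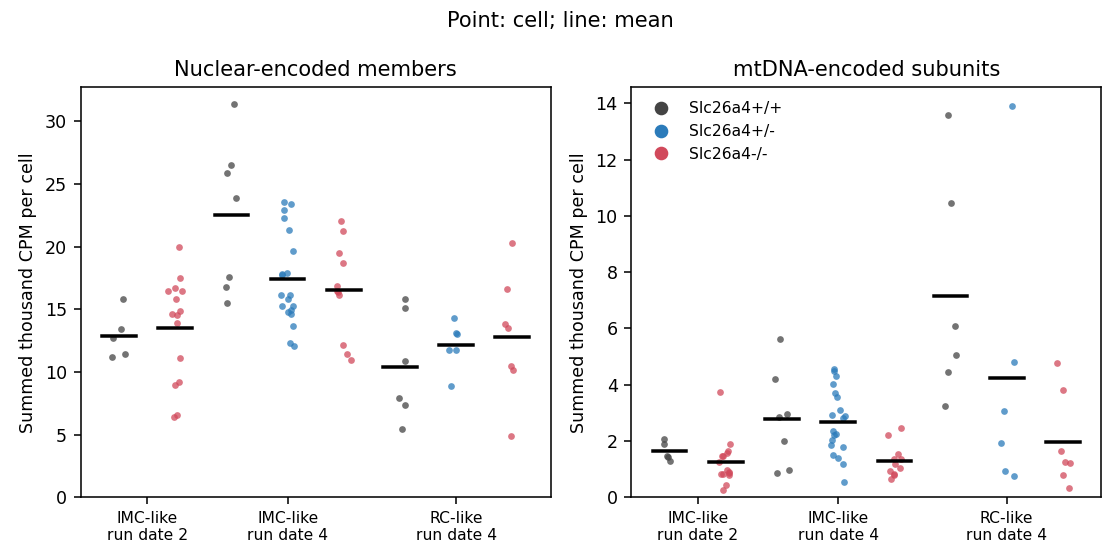
Summed CPM (axis in units of 1000) of the nuclear members (left) and the mtDNA-encoded subunits (right) in single cells of run dates with at least 5 cells of each genotype, with a point for each cell and a line at the mean. In IMC-like cells of run date 4 the Slc26a4-/- mean is near the Slc26a4+/- mean on the left (16537 and 17384 CPM) and below it on the right (1303 and 2675 CPM). The Slc26a4-/- mean there is below the Slc26a4+/+ mean on the left and on the right.

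Spindle and root cells were joined as pendrin cells. Run date 4 alone held at least 5 of each genotype. The members averaged 12820 CPM in 7 Slc26a4-/- cells, from 4903 through 13509 to 20282, against 9781 CPM in 9 Slc26a4+/+ cells, from 5412 through 7954 to 15846, a log2 ratio of 0.39 with overlapping ranges. All 7 Slc26a4-/- cells were RC-like, whereas 6 of the Slc26a4+/+ cells were RC-like cells and 3 SC-like. Within RC-like cells the Slc26a4+/+ mean was 10430 CPM and the log2 ratio 0.30, and 6 Slc26a4+/- RC-like cells averaged 12135 CPM. Of 78 members 16 were at least 2-fold higher against 26.2% of all genes and 4 lower against 29.1%, and within RC-like cells 9 were higher against 31% and 7 lower against 28.6%. Complex V had the largest log2 ratio, 0.81 with SC-like cells and 0.69 without, and complex I the smallest, 0.09 and -0.01. The mtDNA-encoded subunits went the other way, with 1969 CPM in Slc26a4-/- RC-like cells, from 323 through 1236 to 4786, and 7143 CPM in Slc26a4+/+ RC-like cells, from 3227 through 5567 to 13592, and all 12 were at least 2-fold lower. The 6 Slc26a4+/- RC-like cells lay between at 4232 CPM, from 757 through 2489 to 13895. In them 11 of 12 genes were lower than in Slc26a4+/+ cells, as were 4825 of 9889 genes at large. At least 2-fold lower were 5 of the 12, against 30.3% of all genes. The ranges of the 3 genotypes overlapped.

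The members with the highest ratios in pendrin cells were Atp5sl (2.54), Ndufs5 (1.55), Atp5l (1.49), Ndufa9 (1.44) and Atp5e (1.33), and among the lowest were Atp5s (-2.15), Ndufb4 (-1.15), Ndufa6 (-1.01) and Sdhd (-0.997). Atp5l averaged 75.8 CPM in Slc26a4-/- cells, from 35.04 through 76.7 to 120, against 26.4 CPM in Slc26a4+/+ cells, from 0.37 through 28.4 to 80.4. The groups overlapped.

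SC-like and MC-like cells had fewer than 5 cells of a genotype in each run date, so no ratio was taken. Their members averaged 6685 CPM in 8 Slc26a4-/- SC-like cells of run date 2, from 3765 through 6602 to 11890, beside 6570 CPM in 2 Slc26a4+/+ cells of that run date. The 5 Slc26a4-/- MC-like cells averaged 21715 CPM, from 18635 through 22017 to 24492, and the 2 Slc26a4+/- MC-like cells 22621 CPM. In each genotype SC-like cells were thus the lowest and MC-like cells the highest of the 4 types, with 2 cells behind both Slc26a4+/- values.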

How the data were processed

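Gene-level estimated counts per cell were made by the authors with Kallisto on mm10 (GRCm38), and the version is not given in the sources used here. The deposited gene values are whole numbers, equal to the summed transcript estimates rounded down for a median of 99.545% of genes per cell. The authors' transcript tables hold TPM, summed here per gene through GENCODE M21. A table of the whole series had 17 columns of no sample here, which were not used. No 2 cells held identical values (0 pairs). CPM were computed here as counts scaled to the same total in every cell, and only TPM were used between genes. PCR reads carry no molecular identifiers. Cells were clustered with Seurat 5.3.0 (R 4.3.3) on 1986 variable genes without the members, 10 components and a resolution of 0.8, and no doublet caller was run on hand-picked cells. Ratios are log2 of mean CPM with a pseudocount of 1, for genes with a mean of at least 10 CPM. Genotypes were compared within run dates with at least 5 cells of each and averaged over run dates. Tables and figures used Python 3.11.15, numpy 2.4.6, pandas 2.3.3 and matplotlib 3.10.9, and the scripts were tested on simulated data. Named members are the 5 highest and 5 lowest ratios of a comparison, the most abundant by TPM of each complex, the isoform pairs and the core subunits, of which 1 member is not reported here. Members and lists were chosen with earlier results of these data known. As no mouse is named, no test was run.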

Additional observations from a re-analysis of the deposited data

Results flagged for a closer look

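Among 11 groups of 4 to 10 cells examined for the summed members, 1 held a cell far from the others. In the 7 Slc26a4-/- RC-like cells of run date 2 the highest cell stood at 13720 CPM, while the lowest stood at 6593 and the median at 8092 CPM. Chance sets about 1 in 20 such groups apart.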

How the results depend on the processing

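Among the recomputed values 37 moved and 4 changed direction, while the rest stayed near the reported value, and the cause was not tested. Changed directions were the log2 ratio of Slc26a4-/- to Slc26a4+/+ IMC-like cells in run date 2 alone (0.069, and -0.45 in run date 4 alone), of pendrin cells with run dates pooled (-0.020) and of Slc26a4-/- to Slc26a4+/- IMC-like cells in TPM (0.0033) or by medians (0.024). The ratio of Slc26a4+/- to Slc26a4+/+ IMC-like cells was -0.57 by medians and -0.081 pooled. Members at least 2-fold highest in RC-like cells numbered 0 with a pseudocount of 10, and those in MC-like cells 2 without the highest MC-like cell. With a 1.5-fold rule 11 members were highest in IMC-like cells, 15 in MC-like cells and 28 lowest in SC-like cells. In TPM 1 was highest in MC-like and 9 lowest in SC-like cells, with types by marker score 1 highest in IMC-like and 5 lowest in SC-like cells, and in cells with at least 100000 counts and 2500 genes 9 lowest in SC-like cells. No share of all genes was computed for the counts in this paragraph and the next, except where one is given above. With types by marker score, whether members were more often lowest in SC-like cells than other genes was thus not tested.

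Between Slc26a4-/- and Slc26a4+/+ IMC-like cells 8 were higher and 12 lower at 1.5-fold, 0 higher pooled, 13 higher in run date 2, 1 higher and 6 lower in run date 4, and 5 higher and 1 lower without the Slc26a4+/+ cell with the most Ndufb2. In pendrin cells 9 were higher and 2 lower with a pseudocount of 10, 28 and 9 at 1.5-fold, 1 and 7 pooled, 9 and 7 in RC-like cells alone, and 2 lower in TPM. Between Slc26a4+/- and Slc26a4+/+ IMC-like cells 2 were lower with a pseudocount of 10, 3 higher and 17 lower at 1.5-fold and 1 lower pooled. Between Slc26a4-/- and Slc26a4+/- IMC-like cells 4 were higher and 6 lower at 1.5-fold and 1 higher in TPM.

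Leaving out each collection session in turn, chosen after seeing the data like the RC-like cells alone and the sets without a single cell, gave log2 ratios to the mean of the other types of 0.36 to 0.52 in IMC-like, -1.10 to -0.98 in SC-like, -0.64 to -0.39 in RC-like and 0.60 to 0.85 in MC-like cells. For the genotypes they were -0.45 to 0.069 for Slc26a4-/- against Slc26a4+/+ IMC-like cells, where fewer than 5 Slc26a4+/+ cells then remained in run date 2, 0.19 to 0.64 for pendrin cells, -0.43 to -0.35 for Slc26a4+/- against Slc26a4+/+ and -0.17 to 0.054 for Slc26a4-/- against Slc26a4+/-. No paired analysis was possible because replicate numbers name single cells and no result comes from a test. Intervals from cells and reads would cover neither mice nor sessions, and genes under 10 CPM were too sparse to compare.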

Other observations

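Cells of the 2 unnamed clusters also carried the members. The first, led by Slc4a1, Fcnb and Camp, averaged 13899 CPM (SD 8646) over 69 Slc26a4+/+ cells, from 1635 through 13851 to 42012, 17100 CPM over 6 Slc26a4+/- cells and 12279 CPM over 14 Slc26a4-/- cells. In its Slc26a4+/+ cells the summed IMC markers averaged 38219 CPM with a median of 45941, and the 13 markers stood at a median of 70.4% of their IMC-like level, while the neutrophil markers had a median of 0 and the erythroid markers of 96.2 CPM. The 44 of these cells that scored highest on the IMC markers averaged 13828 CPM of members, from 2389 through 14284 to 30957, and the 8 highest on the erythroid markers 11210 CPM. The second, led by Crhbp and Slc26a7, averaged 10985 CPM over 11 Slc26a4+/+ cells, 12958 CPM over 4 Slc26a4+/- cells and 14089 CPM over 2 Slc26a4-/- cells.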
